A study of Mus musculus with 9 samples.

Results

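The genes examined here encode Polycomb repressive complex 2 (PRC2), the enzyme complex that places mono-, di- and trimethyl marks on lysine 27 of histone H3. The trimethyl mark, H3K27me3, is bound by Polycomb repressive complex 1 (PRC1) and is found at silent developmental genes, many of which lie in CpG-rich promoters. In embryonic stem cells PRC2 covers promoters of lineage genes, and in fibroblasts it covers another set, so that the change from fibroblast to stem cell comes with a redistribution of the mark. The members were taken by name: the catalytic subunits Ezh1 and Ezh2, the core subunits Eed, Suz12 and Rbbp4, and the accessory subunits Jarid2, Aebp2, Mtf2 and Phf19. They are 9 of 22367 protein-coding genes of the annotation, and all 9 were found in it.

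ATAC-Seq, in which a transposase inserts adapters into accessible DNA, was read in 9 libraries of mouse embryonic fibroblasts (MEFs) and of cells derived from them. The MEFs carried an EGFP reporter at the Oct4 locus and were infected with retroviruses for Oct4, Sox2, Klf4 and c-Myc (OSKM). The time course held uninfected day 0 cells (D0), unsorted cells of day 3 (D3), cells without the fibroblast surface marker Thy-1 at day 6 and day 9 (D6T- and D9T-), cells with the stem cell surface marker SSEA-1 at day 12 and day 16 (D12S+ and D16S+), and fully reprogrammed induced pluripotent stem cells (iPSCs). The remaining pair was of day 6 cells labelled Thy-1-, infected in the same way and transfected before infection with siRNA against the genes of the histone variant H3.3 (D6 siH3.3) or with a non-targeting siRNA (D6 siNT). The number of iPSC clones was not given in the sources used here. Each condition had 1 library, so no test between conditions was possible, and the values below compare libraries.

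Totals ran from 13213117 tags (D9T-) to 31714845 (D0), and between 36708 (D9T-) and 133132 (D6T-) accessible regions were called. Lower depth and fewer regions went together in D9T-, and D6T- had the most regions at 21390800 tags. The labels were set against marker genes. Of 10 pluripotency genes, all 10 had an accessible promoter in D12S+, D16S+ and iPSCs, against 0 to 5 in the other libraries, and Nanog had none in any of the latter. Of 8 fibroblast genes, 5 to 8 had an accessible promoter in each library, iPSCs included (5), so this list did not set fibroblasts apart. Of 3 blood markers, Cd68 had a promoter region in every library and Ptprc and Lyz2 had none in any. Of 3 endothelial markers, 3 had one in D3 and D6T-, 2 in D0, D12S+ and iPSCs, and 0 in D9T-. In D16S+ and both siRNA libraries 1 of them had one. Transcripts of H3.3 were not measured by ATAC-Seq, and the knockdown is therefore not checked here.

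Accessibility of a promoter is given as the number of tags, extended to 200 bp, over the highest summit of any called region that overlaps the 3 kb upstream of a transcription start site (TSS) of the gene, per 1000000 tags of the library (CPM). It counts tags over a single position and is not a sum over the gene. It is the highest over the windows of all annotated starts, so more starts give more places for a high value. Members had from 2 starts (Eed) to 17 (Jarid2). Brackets give exact Poisson intervals (95%) of a value or exact intervals (95%) of a ratio, and both cover counting error only. A summit is a maximum and PCR reads carry no molecular identifiers, so these intervals are if anything too narrow. In cells taken in bulk, fewer cells with an open promoter and a less open promoter in each cell cannot be told apart.

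Counted at any annotated start, most PRC2 promoters were accessible throughout. A promoter region was called in all 9 libraries for 8 of the 9 members, where the same held for 43.9% of protein-coding genes and for 58.7% of those called in any library. The exception was Ezh1, the catalytic subunit that predominates in resting and differentiated cells, which had no region in D0 and D9T-. With the gene start alone as the promoter, Jarid2 and Phf19 also lacked a region in some library. Their strongest summits lay at internal sites. In each library the median rank of the members that had a region lay between percentile 61.7 (D9T-) and percentile 78.9 (D3) of all protein-coding promoters with a region there. A percentile needs no scaling, but the ranked lists differ in length, from 11281 promoters in D9T- to 15270 in D6T-, and a longer list with more weak promoters gives the same promoter a higher percentile, so ranks of different libraries are set side by side as a description. Their median level was 1.04 CPM in D0, 4.21 in D6T- and 1.47 in iPSCs, and over all promoters the medians of the same libraries were 0.82, 2.71 and 1.02. Levels in CPM therefore moved with the whole library, and changes are given below relative to the median change of all promoters. D6T- and D6 siNT share day and sort label, and the median of the ratios of D6 siNT to D6T-, over promoters called in both, was 0.37. The study's own list of libraries names no sort for the siRNA pair, so a difference in sort cannot be told apart from other differences in this comparison.

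**Figure D1:**
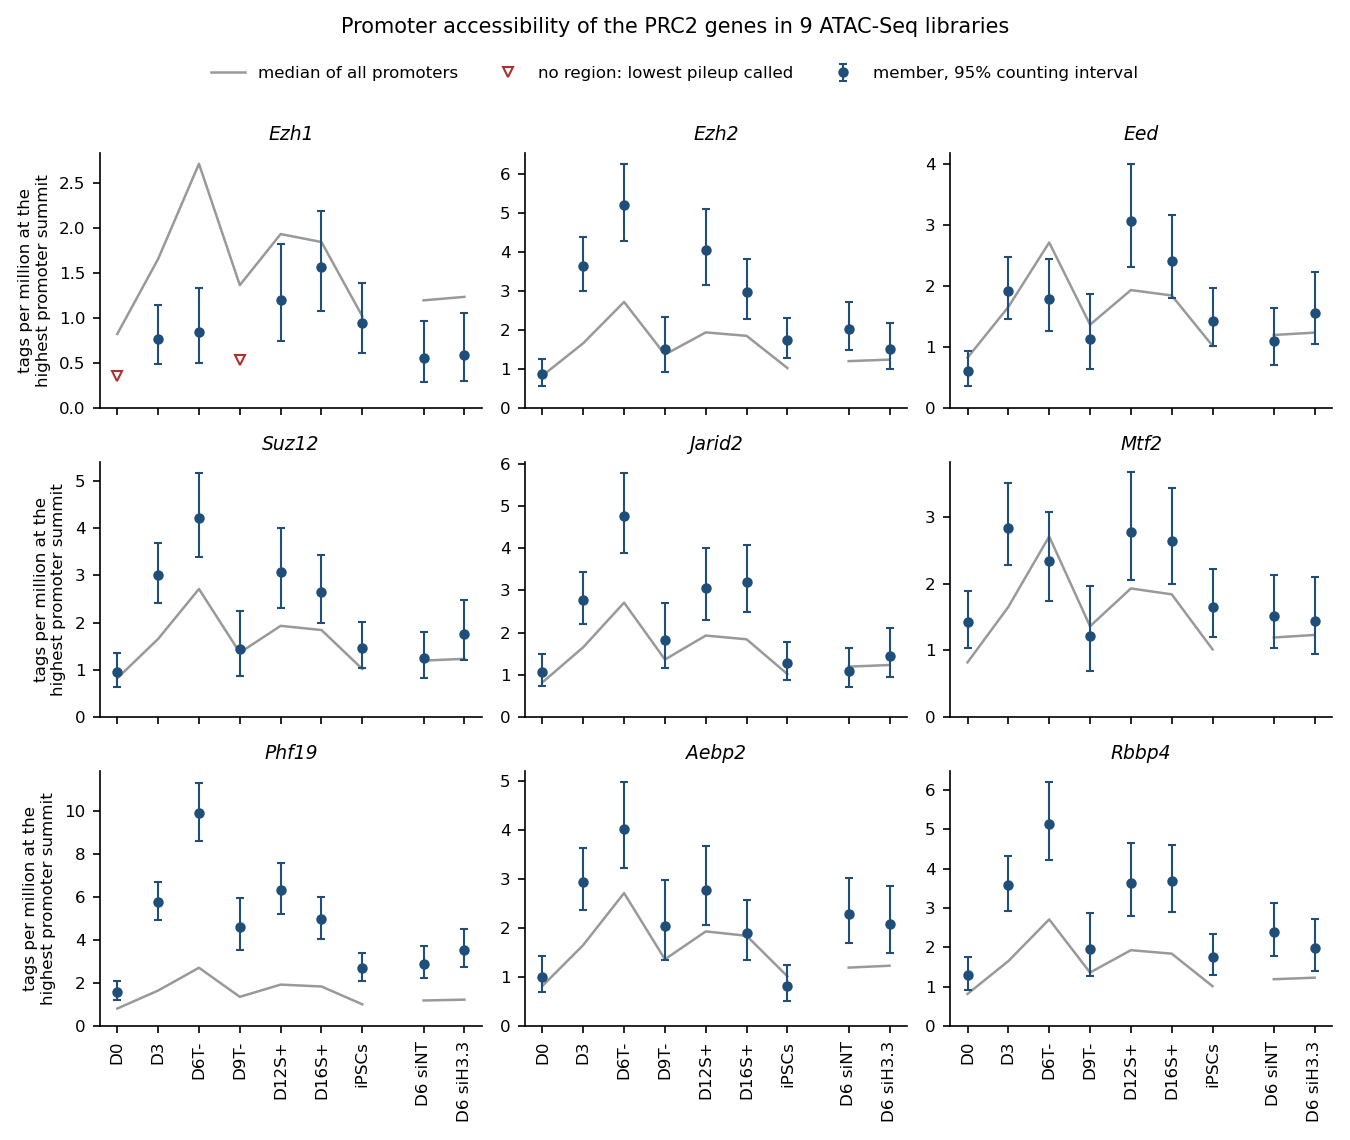
CPM at the highest promoter summit (y axis, its own linear scale from 0 in each panel) of each PRC2 gene in the 9 libraries (x axis), with points for the gene, bars for 95% counting intervals and a grey line for the median of all promoters; open triangles mark libraries with no region at the lowest level called there. Most genes follow the grey line, with Phf19 far above it in every library (1.61 to 9.86) and Ezh1 below or near it (0.55 to 1.56).

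Among the catalytic subunits, Ezh2 is the methyltransferase of dividing and embryonic cells. Its promoter reached 0.85 CPM in D0, 3.64 in D3, 5.19 in D6T-, 1.51 in D9T-, 4.03 in D12S+, 2.98 in D16S+ and 1.73 in iPSCs, with 2.02 in D6 siNT and 1.5 in D6 siH3.3. The highest library, D6T-, exceeded the lowest, D0, by 6.10-fold [3.97, 9.66]. Of the 8 neighbouring pairs in the order of levels, only D6 siH3.3 against D0 was separated beyond counting error. By rank, Ezh2 stood at percentile 51.8 in D0 and between 77.1 and 87.7 in D3, D6T-, D12S+, D16S+ and iPSCs, while D9T- (56.2) was near D0. Its summits lay 124 to 245 bp downstream of the gene start in all 9 libraries.

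Ezh1 had the weakest promoter of the members in 6 of the 7 libraries in which it was called. Its summit held 23 tags in D3, 18 in D6T-, 21 in D12S+, 33 in D16S+, 25 in iPSCs, 12 in D6 siNT and 11 in D6 siH3.3, or 0.76, 0.84, 1.19, 1.56, 0.94, 0.55 and 0.59 CPM. None of the 6 neighbouring pairs of these levels was separated, so its order over libraries is loose. Its rank was lowest in the day 6 libraries, at percentile 10.2 in D6T-, 5.25 in D6 siNT and 7.37 in D6 siH3.3, and was highest in D16S+ (40.0) and iPSCs (43.9). In D0 and D9T- any summit was below the lowest pileup that was called, 11 tags in D0 and 7 in D9T-. Ezh1 thus went uncalled in both, although D0 had the most tags of all libraries, and is not shown to be closed in them.

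Since Ezh1 had the largest ratio between iPSCs and D0 among the members, the 300 bases upstream of its gene start are shown, at chr11:101087778-101088077 of mm9 on the minus strand. Capitals mark both matches to GGGNGTGG, the letters searched for Krüppel-like factors (KLF), on either strand. In the 300 bp around the summit a match to these letters occurred in all 7 libraries with an Ezh1 region, against 23.4% of all promoters in iPSCs. The marked match at the far upstream end of the printed stretch lies outside those windows. A match describes the letters and is not a bound site. Of the 277 words of 24 bases in the printed stretch, 42 also occur elsewhere in the genome. At least 20 of them recur together in each of 130 other kilobases.
Ezh1 upstream: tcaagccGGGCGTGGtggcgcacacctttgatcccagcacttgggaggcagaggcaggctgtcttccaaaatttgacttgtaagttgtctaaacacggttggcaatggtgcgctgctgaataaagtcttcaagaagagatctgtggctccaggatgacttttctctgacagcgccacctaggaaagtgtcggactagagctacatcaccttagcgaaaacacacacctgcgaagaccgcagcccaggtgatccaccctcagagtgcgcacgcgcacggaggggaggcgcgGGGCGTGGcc

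Of the core subunits, Eed reads the trimethyl mark and stimulates the enzyme. Its levels were 0.60 CPM in D0, 1.92 in D3, 1.78 in D6T-, 1.14 in D9T-, 3.07 in D12S+, 2.41 in D16S+ and 1.43 in iPSCs, with 1.10 in D6 siNT and 1.55 in D6 siH3.3. D12S+ exceeded D0 by 5.12-fold [2.99, 9.14], and none of the 8 neighbouring pairs was separated. Eed ranked at percentile 25.3 in D0, 58.0 in D3, 30.7 in D6T-, 36.2 in D9T-, 76.3 in D12S+, 65.6 in D16S+ and 76.3 in iPSCs. The siRNA libraries, at 44.5 in D6 siNT and 64.2 in D6 siH3.3, spanned the gap between the lower and the higher of these ranks. The position of the strongest summit also differed. Counted from the gene start, with negative positions upstream, it lay at 324 to 478 bp in 7 libraries, at -196 bp in D16S+ and at -162 bp in iPSCs. In these 9 libraries the summit fell within a region that reached across the gene start, and D0 had a separate upstream region of 18 tags beside the downstream region of 19.

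Suz12, the scaffold on which the complex assembles, stood at 0.95 CPM in D0, 3.01 in D3, 4.21 in D6T-, 1.44 in D9T-, 3.07 in D12S+, 2.64 in D16S+ and 1.47 in iPSCs, with 1.24 in D6 siNT and 1.77 in D6 siH3.3. Its rank moved between percentile 52.2 (D6 siNT) and 79.8 (D3). Rbbp4, a histone-binding WD-repeat protein that also serves other chromatin complexes, stood at 1.29, 3.57, 5.14, 1.97, 3.63, 3.68 and 1.77 CPM over the time course from D0 to iPSCs, and at 2.39 in D6 siNT and 1.98 in D6 siH3.3. It ranked between percentiles 71.4 and 87.5 in all 9 libraries, the narrowest range after Phf19. The start of Rbbp4 lies 325 bp from that of Zbtb8os on the opposite strand, and the region called for Rbbp4 is the same as for Zbtb8os, so its level cannot be assigned to either gene.

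**Figure D2:**
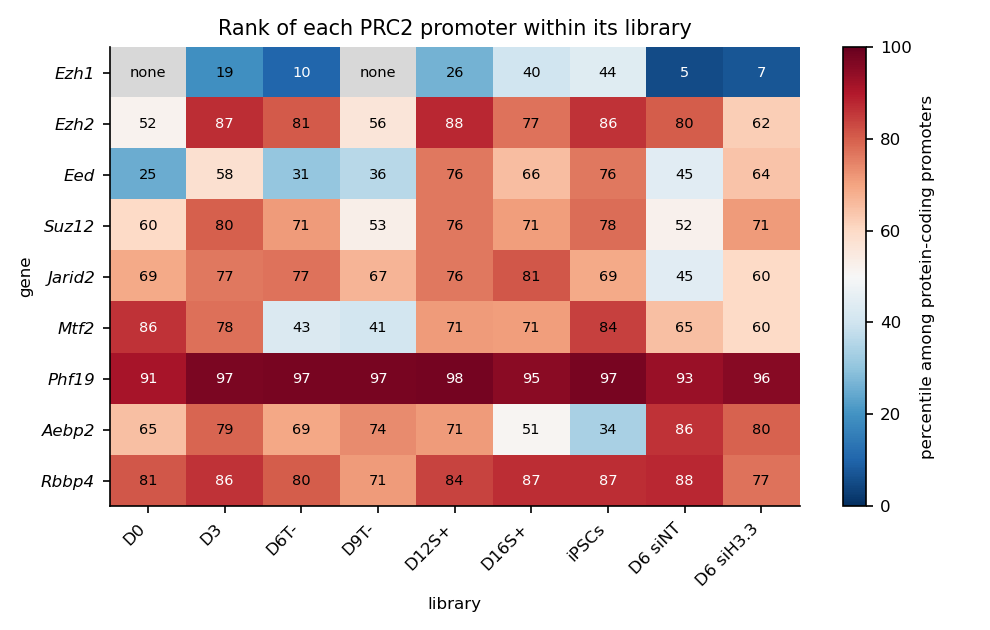
Rank of each PRC2 promoter (rows) among the protein-coding promoters called in the same library (columns), as a percentile written in each cell and coloured from blue (low) to red (high); grey cells marked none had no region. Phf19 stays at or above percentile 91.3, Ezh1 stays at or below 43.9, and Aebp2 has its lowest rank in iPSCs (33.6).

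Jarid2 and Aebp2 are DNA-binding accessory subunits of the form of the complex called PRC2.2. The Jarid2 promoter stood at 1.07 CPM in D0, 2.78 in D3, 4.77 in D6T-, 1.82 in D9T-, 3.07 in D12S+, 3.21 in D16S+ and 1.28 in iPSCs, with 1.10 in D6 siNT and 1.45 in D6 siH3.3. Only D6T- against D16S+ was separated among the 8 neighbouring pairs. The strongest summit lay 1158 to 1334 bp downstream of the 5' end of the gene model, close to internal protein-coding starts 1.30 kb downstream of it, in all 9 libraries. A further region with its summit 4.11 to 4.49 kb downstream was called in all 9 libraries with 13 to 45 tags. In D16S+ and iPSCs alone, a small region with 11 and 13 tags lay upstream of the gene model, with summits at -855 bp and -801 bp.

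Aebp2 had the most divided promoter. Its level was 1.01 CPM in D0, 2.94 in D3, 4.02 in D6T-, 2.04 in D9T-, 2.78 in D12S+, 1.89 in D16S+ and 0.83 in iPSCs, with 2.30 in D6 siNT and 2.09 in D6 siH3.3. iPSCs were the lowest library and D6T- exceeded them by 4.86-fold [3.01, 8.15]. The rank lay between percentiles 64.9 and 86.0 in 7 libraries, at 51 in D16S+ and at 33.6 in iPSCs. These levels come from different sites: the strongest summit lay at -635 bp from the gene start in D0, at 1000 to 1107 bp in 7 libraries and at 108 bp in iPSCs.

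The Aebp2 sites upstream of the gene start were as follows. A region with its summit between -1512 and -1261 bp was called with 25 tags in D0, 37 in D3, 77 in D6T-, 13 in D9T-, 17 in D12S+, 14 in D16S+, 31 in D6 siNT and 28 in D6 siH3.3, and was not called in iPSCs. A nearer one, with its summit between -635 and -547 bp, held 32 tags in D0, 42 in D3, 67 in D6T-, 21 in D9T-, 31 in D12S+, 35 in D6 siNT and 31 in D6 siH3.3, and was not called in D16S+ or iPSCs. In iPSCs, where 10 tags sufficed for a call, the only region of the promoter windows ran from -46 to 1468 bp. The upstream sites were therefore called in every library from D0 to D12S+ and in neither form in iPSCs.

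The sequence around the D0 summit of the nearer site is shown for this reason, at chr6:140570185-140570484 of mm9 on the plus strand. Capitals mark the reverse complement of the octamer ATGCAAAT, which POU factors such as Oct4 recognise, and a match to TGANTCA, the letters of AP-1. Among the windows around the strongest D0 summits of 12968 promoters, 1.24% held the octamer and 11.2% the AP-1 letters, and Aebp2 was the single one of the 8 members with either. Its ratio of observed to expected CpG was 0.08 in this window, against a median of 0.76 over those promoters. At the downstream summits the ratio was 1.02 to 1.12 in D3, D6T-, D9T-, D12S+, D16S+ and both siRNA libraries, so the upstream site is CpG-poor and the downstream one CpG-rich.
Aebp2 upstream: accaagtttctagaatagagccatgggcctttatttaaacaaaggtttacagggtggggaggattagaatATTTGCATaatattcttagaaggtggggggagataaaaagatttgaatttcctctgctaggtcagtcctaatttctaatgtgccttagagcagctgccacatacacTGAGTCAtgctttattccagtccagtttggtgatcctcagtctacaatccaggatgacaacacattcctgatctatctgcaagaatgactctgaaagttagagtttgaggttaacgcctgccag

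**Figure D3:**
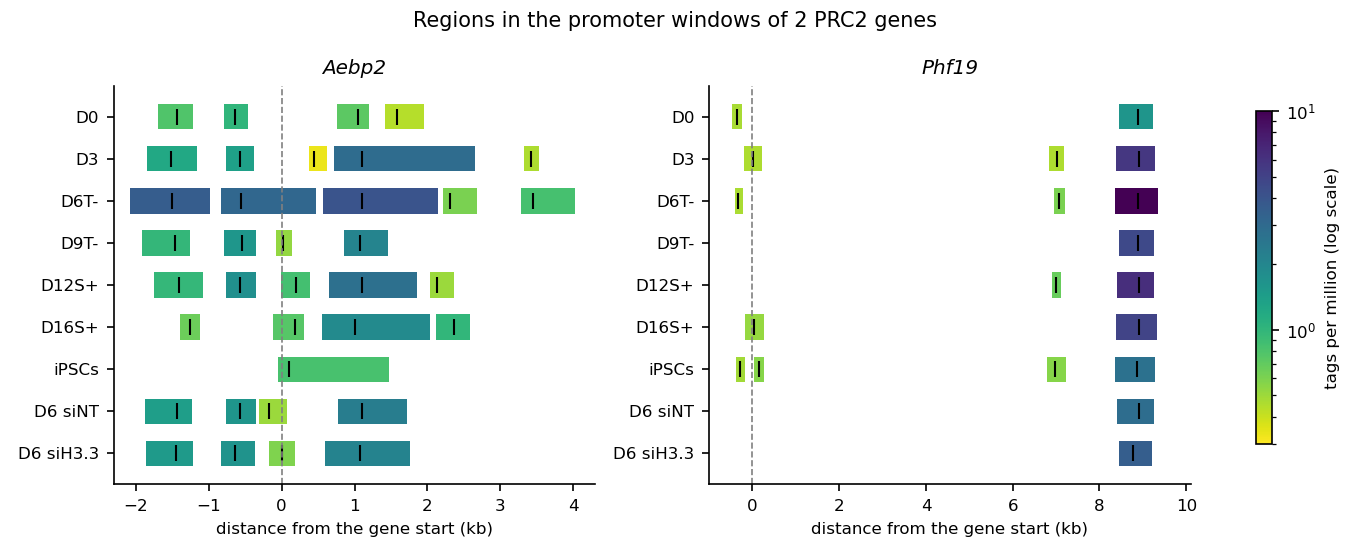
Called regions (horizontal bars) in the promoter windows of Aebp2 and Phf19 in each library (rows), placed by distance from the 5' end of the gene model in kb (x axis), coloured by CPM on a log scale, with black ticks at the summits and a dashed line at the gene start. Aebp2 has no bar upstream of its gene start region in iPSCs, and the strong region of Phf19 lies near 8.9 kb downstream of its gene start.

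Mtf2 and Phf19 are Polycomb-like proteins, which bring the form called PRC2.1 to unmethylated CpG-rich DNA. Mtf2 varied least in CPM, with 1.42 in D0, 2.84 in D3, 2.34 in D6T-, 1.21 in D9T-, 2.78 in D12S+, 2.64 in D16S+ and 1.66 in iPSCs, and 1.51 in D6 siNT and 1.45 in D6 siH3.3. Its highest over lowest ratio was 2.35 [1.37, 4.29], the smallest of the members. Its rank was at percentile 86.0 in D0, 42.6 in D6T-, 40.7 in D9T- and 84.4 in iPSCs.

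Phf19 had the highest promoter summit of the members in all 9 libraries. It held 51 tags in D0, 174 in D3, 211 in D6T-, 61 in D9T-, 111 in D12S+, 105 in D16S+, 72 in iPSCs, 63 in D6 siNT and 66 in D6 siH3.3, or 1.61, 5.76, 9.86, 4.62, 6.30, 4.96, 2.71, 2.89 and 3.54 CPM. It was separated from the next member beyond counting error in D3, D6T-, D9T-, D12S+, iPSCs and D6 siH3.3, and not in D0, D16S+ and D6 siNT. The summit lay 8.77 to 8.92 kb downstream of the gene start, 200 to 345 bp upstream of the start of an internal noncoding transcript. Within 500 bp of the gene start itself, regions were called in 5 libraries, with 10 to 15 tags. The high rank of Phf19 is thus that of an internal site and not of its main start.

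From D0 to D6T-, the interval in which infected cells lose Thy-1, the median promoter was higher by 1.93 on the log2 scale (3.80-fold), and values relative to it follow. Mtf2 was lower by at least 2-fold, at -1.21 [-1.82, -0.59], where 10.3% of all protein-coding promoters were. No member was higher by at least 2-fold, and 2.75% of all promoters were. Phf19 at 0.69 [0.24, 1.16] and Ezh2 at 0.68 [0.06, 1.34] had intervals above no relative change and ranked at percentiles 92.0 and 91.7 of all changes. The Phf19 value is that of the internal site, and with the gene start alone as the promoter it was -1.97. With the midpoint of a region as the criterion of overlap, Ezh2 was at -1.87. Under it the D6T- region at the Ezh2 start did not count, and a region of 17 tags 58.2 kb downstream stood for it. Without centring, Mtf2 was at 0.72. Suz12, Jarid2, Aebp2 and Rbbp4 lay between 0.06 and 0.23 and Eed at -0.36, with intervals that held 0, and the Aebp2 value sets different summits (-635 and 1098 bp) against each other. Ezh1 has only a bound here, at least -0.65. The members' median was 0.07, within the middle of all promoters (quartiles -0.44 and 0.34).

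Between D6T- and D12S+ the sort changed from loss of Thy-1 to gain of SSEA-1, and day and sort cannot be told apart. The median promoter was lower by 0.61 on the log2 scale, and Eed at 1.40 [0.77, 2.04] and Ezh1 at 1.12 [0.14, 2.11] were higher relative to it by at least 2-fold. Higher calls were made for 2 of 9 members and 5.31% of all promoters, lower calls for 0 members and 3.51% of all promoters. Eed ranked at percentile 98.8 of all changes. Mtf2 followed at 0.86 [0.27, 1.46], and the other 6 lay between -0.03 and 0.25, with intervals that held 0. The 2-fold call of Ezh1 rests on 18 and 21 tags and is lost with equal numbers of regions per library (0.48). Without centring neither call is made (Eed 0.79, Ezh1 0.50). With the midpoint criterion Mtf2 was called lower by at least 2-fold. That call sets a D6T- region of 29 tags 24.3 kb downstream against no region in D12S+, since the Mtf2 start regions did not count. Eed, Ezh1 and Mtf2 were also the highest members from D6T- to D6 siNT (0.73, 0.81 and 0.79), a comparison that shares the D6T- library.

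From D12S+ to iPSCs the median promoter was lower by 0.90 on the log2 scale. No member passed 2-fold in either direction, against 9.59% of all promoters higher and 2.40% lower. Aebp2 stood lowest at -0.85 [-1.65, -0.10], percentile 4.19 of all changes, and its interval alone lay below 0. It sets the D12S+ summit at 1102 bp against the iPSC summit at 108 bp, and with the gene start alone as the promoter it was -0.17. The others ranged from -0.36 (Jarid2) to 0.56 (Ezh1), and the members' median was -0.20.

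**Figure D4:**
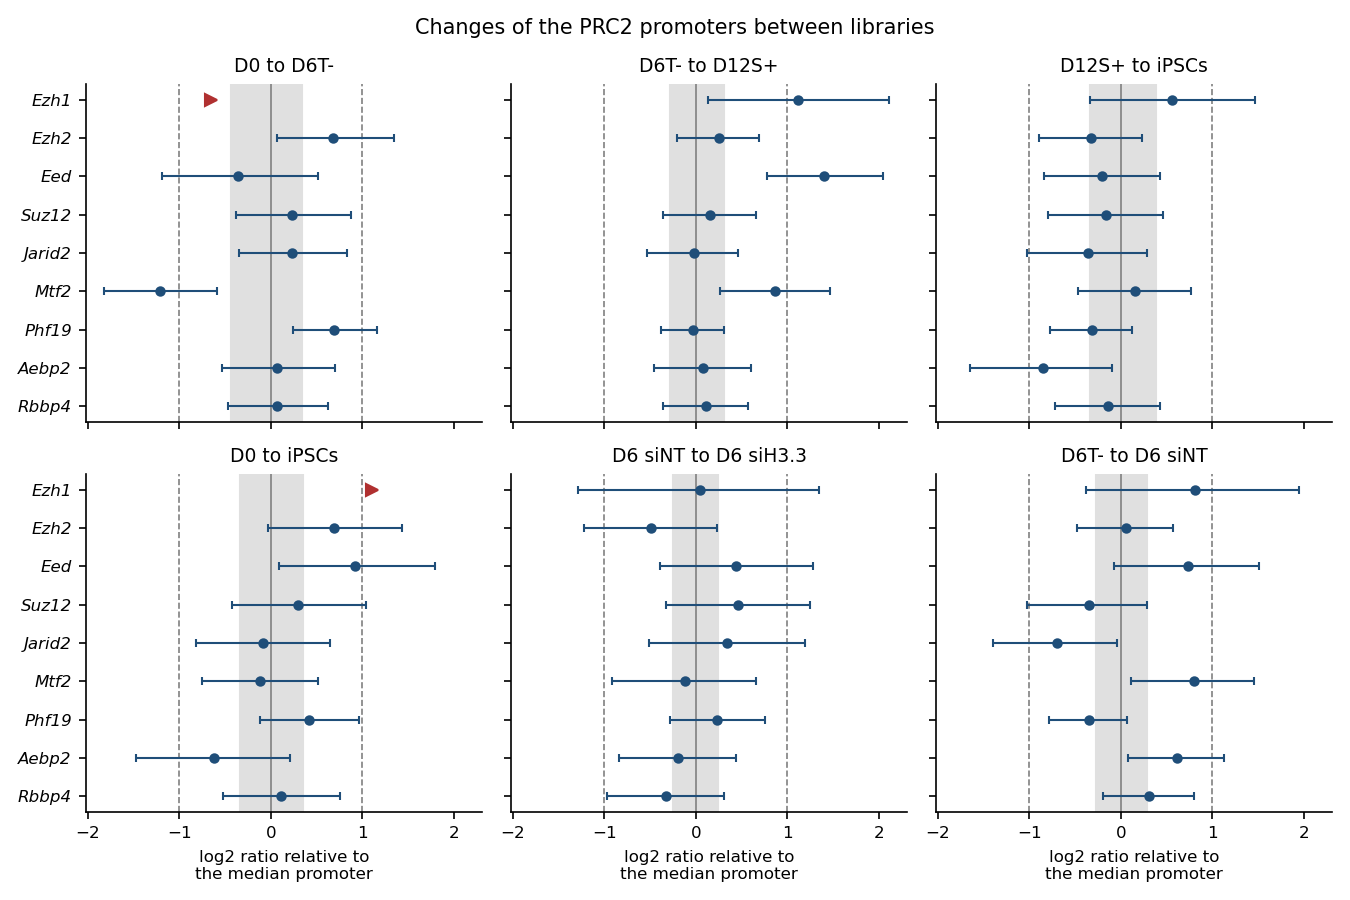
Log2 ratio of promoter CPM relative to the median promoter (x axis) for each PRC2 gene (rows) in 6 comparisons of libraries (panels), with bars for exact 95% counting intervals, a grey band for the quartiles of all promoters, dashed lines at 2-fold and triangles for bounds of Ezh1, which had no region in D0. Most genes lie near the band, and Mtf2 (D0 to D6T-), Eed and Ezh1 (D6T- to D12S+) and the bound of Ezh1 (D0 to iPSCs) pass 2-fold.

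Between the ends of the course, D0 and iPSCs, the median promoter was higher by 0.34 on the log2 scale. Ezh1 was the single member called, with a bound of at least 2.15-fold (1.10 on the log2 scale) set by the lowest pileup called in D0, and 6.30% of all promoters were higher by at least 2-fold. This call needs the missing region of D0 and has no interval, and it is lost with the stronger regions alone (bound 0.49) or with equal numbers of regions (0.45). Eed stood at 0.92 [0.09, 1.79] and Ezh2 at 0.69 [-0.03, 1.43]. Under the midpoint criterion Ezh2 had a bound of at most -1.48, since no Ezh2 region of iPSCs counted. Phf19 lay at 0.42, Suz12 at 0.30, Rbbp4 at 0.11, Jarid2 at -0.08 and Mtf2 at -0.11, all with intervals that held 0. Aebp2 was lowest at -0.62 [-1.48, 0.21], a ratio that sets different sites against each other. No member was lower by at least 2-fold, against 5.30% of all promoters.

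In cells transfected with siRNA against H3.3, the comparison asks how promoter accessibility at day 6 stood beside the non-targeting control. All 9 members had a region in both libraries. No member passed 2-fold, and 0.642% of all promoters were higher and 1.25% lower. Differences relative to the median promoter ran from -0.48 [-1.22, 0.23] for Ezh2 to 0.46 [-0.32, 1.25] for Suz12, with a median of 0.04, and all 9 intervals held 0. Ezh2 had 44 tags in D6 siNT and 28 in D6 siH3.3, Eed 24 and 29, Suz12 27 and 33, Jarid2 24 and 27, and Ezh1 12 and 11. Counting error set the limit of what could be seen: the interval of Ezh1 reached from -1.28 to 1.35, and the narrowest, that of Phf19, from -0.29 to 0.76.

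The pair D6T- and D6 siNT shows how far members differ between libraries with the same day and sort label. No member passed 2-fold, against 1.69% of all promoters higher and 1.63% lower. Mtf2 at 0.79 [0.11, 1.46] and Aebp2 at 0.61 [0.08, 1.13] had intervals above 0, and that of Jarid2, at -0.69 [-1.40, -0.04], lay below 0. Ezh1 (0.81) and Eed (0.73) were also high, with intervals that held 0. The largest of these values are as far from 0 as those of Ezh2 and Phf19 between D0 and D6T-, and the comparisons of D6T- with D0 and with D12S+ share its library with this pair.

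Of the other genes of the pathway, Rbbp7, a paralogue of Rbbp4, had a promoter level of 1.10 CPM in D0 and 1.28 in iPSCs. Phf1, the remaining Polycomb-like gene, had 1.04 and 1.17. Lcor, whose locus encodes an accessory subunit, had no region in D0 and a bound of at least 1.10 on the log2 scale from D0 to iPSCs. This was the single 2-fold call among the 4 other PRC2 genes in the 6 comparisons, and 6.30% of all promoters were higher from D0 to iPSCs. Of 19 PRC1 genes, 17 had a promoter region in all 9 libraries (Pcgf6 and Cbx6 did not), against 43.9% of all protein-coding genes. From D0 to D6T-, 0 of 19 were higher by at least 2-fold, against 2.75% of all promoters. In the same comparison 2 were lower, against 10.3% of all promoters: Cbx6 at -1.25 and Cbx7 at -1.36, both readers of H3K27me3. From D6T- to D12S+ none of the 19 passed 2-fold, against 5.31% of all promoters higher and 3.51% lower. From D12S+ to iPSCs, 1 was higher, Cbx2 at 1.06, against 9.59% of all promoters. From D0 to iPSCs, 1 was higher, Ring1, an E3 ligase of histone H2A, at 1.00, against 6.30%. No gene of these lists passed 2-fold between the siRNA libraries, against 0.642% of all promoters higher and 1.25% lower.

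The demethylases that remove the mark differed in level. Kdm6a stood at 1.39 CPM in D0, 3.61 in D3, 5.61 in D6T-, 2.95 in D9T-, 4.94 in D12S+, 5.43 in D16S+, 1.13 in iPSCs, 2.16 in D6 siNT and 2.30 in D6 siH3.3, and from D12S+ to iPSCs it was lower by at least 2-fold relative to the median promoter, at -1.23, as 2.40% of all promoters were. Kdm6b was near the lowest levels called, between 0.44 (D0) and 0.97 (D12S+) in 6 libraries, and had no region in D9T-, D6 siNT and D6 siH3.3.

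Inside the genes and outside the promoter windows, 42 regions were found after joining regions that overlapped between libraries. Jarid2, the longest gene at 192 kb, held 15, Aebp2 10, Mtf2 5, Ezh2 and Phf19 4 each, Eed 2, Ezh1 and Rbbp4 1 each and Suz12 0. Of the 42, 2 were called in all 9 libraries, 20 in a single library and 13 in D6T- alone, the library with the most regions overall. The same counts were not taken over the intragenic regions of all genes, so they have no share beside them. The Jarid2 region among the 2 called throughout has letters repeated elsewhere in the genome. Per 100 kb of gene, the members held 1.38 regions in D0, 5.51 in D6T- and 2.95 in iPSCs. All protein-coding genes held 3.47, 5.55 and 2.36, so the members had fewer than other genes in D0 and about as many in D6T-.

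The strongest of these regions in Aebp2 lay in an intron 45.1 kb downstream of the gene start, at chr6:140614379-140616551. It held 1.26 CPM in D0, 3.27 in D3, 7.76 in D6T-, 4.16 in D9T-, 2.73 in D12S+, 0.94 in D16S+, 1.13 in iPSCs, 2.85 in D6 siNT and 2.68 in D6 siH3.3. In D6T- and D9T- it stood at percentiles 99.2 and 98.5 of all regions of the library, and in D16S+ at 58.1. Over the median promoter of its library it was 2.86 times in D6T- and 0.51 times in D16S+. The 300 bases around its D6T- summit, chr6:140615912-140616211 on the plus strand of mm9, hold an AP-1 match (TGANTCA, capitals) and a CCAAT box, the letters of NF-Y (capitals). AP-1 letters occurred in 43.3% of the windows around D6T- summits outside promoters, so the match is common in this class. No word of 24 bases in this window occurs elsewhere in the genome.
Aebp2 intron: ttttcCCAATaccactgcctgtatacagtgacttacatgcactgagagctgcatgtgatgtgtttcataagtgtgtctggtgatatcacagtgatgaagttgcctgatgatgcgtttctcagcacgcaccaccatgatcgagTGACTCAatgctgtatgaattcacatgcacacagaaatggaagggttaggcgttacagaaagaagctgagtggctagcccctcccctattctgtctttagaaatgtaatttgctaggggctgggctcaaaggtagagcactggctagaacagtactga

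Regions called in D12S+, D16S+ and iPSCs and in no other library were found in Eed and Aebp2. The Eed region, in an intron 5.26 kb downstream of the gene start at chr7:97124106-97124530, held 11 tags in D12S+, 15 in D16S+ and 20 in iPSCs, near the lowest numbers called there (8, 9 and 10). The Aebp2 region 54.8 kb downstream, at chr6:140625563-140626024, overlaps an exon and a UTR of the annotation and held 14, 16 and 19 tags. These are small signals, and the lowest number called was 11 in D0, so a weak region of this size could go uncalled there. The sequence around the iPSC summit in Eed, chr7:97124085-97124384 on the minus strand of mm9, is shown as that of the late region of a core subunit. Capitals mark a CCAAT match on the reverse strand, and 61 of 277 words of 24 bases occur elsewhere in the genome.
Eed intron: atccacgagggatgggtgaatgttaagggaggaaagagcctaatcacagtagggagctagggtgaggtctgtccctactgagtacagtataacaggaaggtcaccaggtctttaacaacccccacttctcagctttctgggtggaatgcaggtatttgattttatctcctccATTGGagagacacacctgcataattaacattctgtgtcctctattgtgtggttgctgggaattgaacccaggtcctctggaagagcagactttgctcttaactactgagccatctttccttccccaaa

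Regions with other patterns were also seen. An intronic Ezh2 region 35.8 kb downstream of the start was called in D0 (19 tags) and D3 (14 tags) alone. The single Rbbp4 region, at a noncoding exon 10.4 kb downstream of the start (chr4:129001903-129002393), held 0.85 CPM in D0, 1.42 in D3, 2.43 in D6T-, 1.67 in D9T-, 0.74 in D12S+, 0.78 in D6 siNT and 1.39 in D6 siH3.3 and was not called in D16S+ or iPSCs. An intronic Jarid2 region 22.4 kb downstream was called in all libraries but D0, with 10 tags in D6 siH3.3 to 42 in D6T-. In Ezh1 a region 1.95 kb downstream of the start held 10 tags in D3, 41 in D6T- and 17 in D6 siNT, and the D6T- summit exceeded that of the Ezh1 promoter (18 tags). Mtf2 had its strongest internal regions in iPSCs, 10.8 and 11.4 kb downstream of the start, with 28 and 29 tags.

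**Figure D5:**
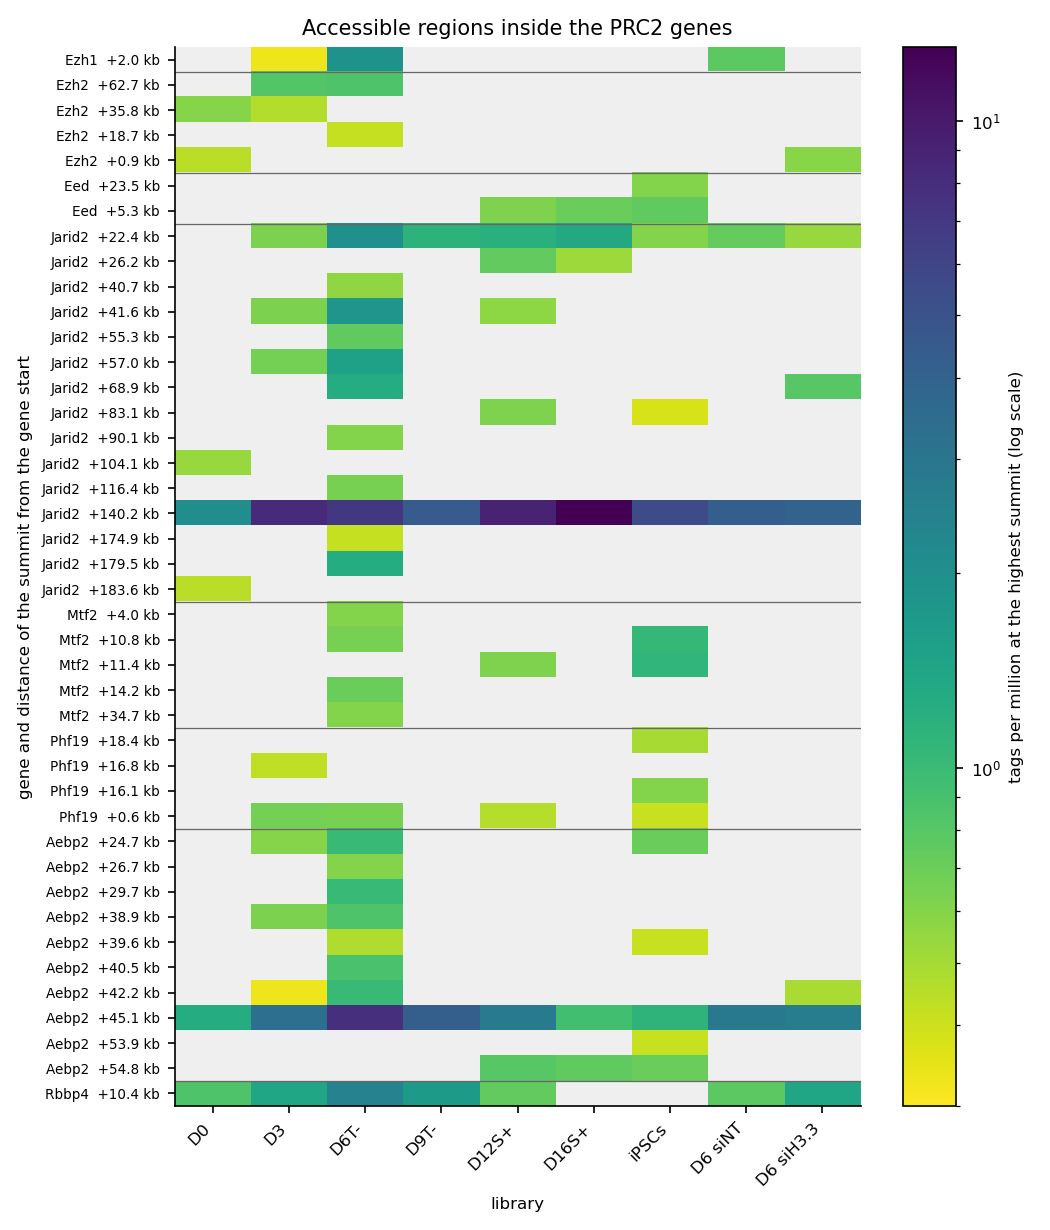
CPM (colour, log scale) of the 42 regions inside the PRC2 genes, by gene and distance of the summit from the gene start (rows) and library (columns); pale grey cells had no region. The Jarid2 region at 140.2 kb and the Aebp2 region at 45.1 kb are called in all 9 libraries and reach 12.89 and 7.76.

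The highest CPM mapped to the 9 genes in any library, 12.89 in D16S+, lay at a Jarid2 intron whose letters are largely repeated elsewhere in the genome. The region lay 140.2 kb downstream of the start at chr13:44964802-44965548. It held 65 tags in D0, 250 in D3, 151 in D6T-, 58 in D9T-, 158 in D12S+, 273 in D16S+, 143 in iPSCs, 91 in D6 siNT and 73 in D6 siH3.3, and was exceeded in D6T- by the Phf19 promoter and the Aebp2 intron and in D9T- by Phf19. It stood at or above percentile 98.8 of all regions in every library. Of the 277 words of 24 bases around its D16S+ summit, 193 (69.7%) occur elsewhere in the genome, against 0 or 1 in the windows around the strongest promoter summits of the 9 members. The place that shared most of them was a kilobase of chromosome 2 at Arhgap21, with 93 words. The number of tags that belong to this locus itself was not tested, and the values are given for the locus as mapped. The 300 bases around the D16S+ summit, chr13:44964890-44965189 on the plus strand of mm9, are shown for their repeated letters, with a KLF match in capitals, and their ratio of observed to expected CpG is 1.12.
Jarid2 intron: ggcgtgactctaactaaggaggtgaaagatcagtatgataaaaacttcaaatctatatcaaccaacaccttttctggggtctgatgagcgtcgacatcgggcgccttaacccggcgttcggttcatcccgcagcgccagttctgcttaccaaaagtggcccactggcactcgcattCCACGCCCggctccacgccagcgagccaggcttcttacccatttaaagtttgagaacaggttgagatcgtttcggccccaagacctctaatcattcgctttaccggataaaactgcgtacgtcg

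Letters of transcription factor sites were counted around the promoter summits of the members. The letters TTTCCCGC of E2F, a family of cell cycle regulators, were held by 3 of 8 members around their D0 summits (Suz12, Mtf2 and Eed), against 1.94% of all promoters, and by 2 of 9 in iPSCs (Suz12 and Mtf2), against 2.13%. In D3 and D16S+ Mtf2 alone held them, against 1.72% and 2.00% of all promoters. Mtf2 held them in 9 of 9 libraries and Suz12 in 6. The related letters TTTGGCGC were held by Ezh2 in 6 of 9 libraries, D0 among them, against 0.918% of all D0 promoters. CCAAT was held by 4 of 9 in iPSCs (Suz12, Ezh2, Jarid2 and Rbbp4), against 38.0%. The GC box GGGCGG was held by 4 of 9 in iPSCs (Suz12, Phf19, Mtf2 and Rbbp4), against 68.2%, the fewest members of any library. It was held by 8 of 9 in D3, D6T-, D12S+ and D6 siH3.3, against 63.8% (D6T-) to 70.4% (D6 siH3.3). Counts were 6 of 8 in D0 and D9T-, 7 of 9 in D6 siNT and 6 of 9 in D16S+, the last against 71.6%. The NRF1 letters GCGCATGCG were held by Eed at its D16S+ and iPSC summits, where 2.65% of all iPSC promoters held them. Searches covered both strands and 10 sets of letters, KLF matches can overlap other GC-rich letters, and these counts are descriptions of the members. The median ratio of observed to expected CpG of the members was 1.01 in D0 (all promoters 0.76) and 0.85 in iPSCs (all promoters 0.79).

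The promoters whose levels over the 9 libraries were most like those of a member were listed by Pearson's r of CPM over 9818 genes. For Ezh2 they were Phf20, Sgtb and Ppargc1b, each at r = 0.99. For Suz12 they were Mettl21d, Atp5sl and Avpi1, and for Phf19 they were Haus7, Tcea1 and Bnip3l, each also at 0.99. The promoters most like Jarid2 and Aebp2 reached 0.99 too, and Rbbp4 had r = 1 with Zbtb8os, with which it shares its region. The median r to all genes was 0.86 for Ezh2 and 0.88 for Suz12 and for Phf19, since the libraries share their scale. For Eed and Mtf2 it was lower, at 0.69 and 0.70. No list was made for Ezh1, which lacked a region in D0 and D9T-.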

How the data were processed

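ATAC-Seq peak tables of 9 libraries were used, 1 per condition, grouped by the sample labels. The submitters' notes name STAR, Picard and mm9, and the authors removed duplicates. Per the file headers, peaks were called with MACS2 2.1.0.20151222 from tags of 51 bp extended to 200 bp, at a q-value cutoff of 0.05, without a control or a local background. The pileup deposited for each summit is a signal that counts tags and is not scaled to the library. The deposited fold enrichment is a ratio of the pileup to the mean of the genome, and the significance of a peak was deposited as −log10 of its p-value and −log10 of its q-value.

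Within a library, peaks that overlapped were joined, and the highest pileup was divided by the total of the header and given per 1000000 tags (CPM). Genes came from GENCODE vM1 on NCBIM37, the same build as mm9. Changes are log2 ratios minus the median over protein-coding promoters called in both libraries, and 2-fold was used as the limit. A promoter without a region was set to the lowest pileup called in that library, which gives a bound. Intragenic regions were those inside the gene and outside its promoter windows, joined at 1 bp of overlap. They were named where they were the strongest of a gene or called in D12S+, D16S+ and iPSCs alone or in D0 and D3 alone, and further ones named in the text were chosen after their values were seen. Every member was named. The members, the lists of other Polycomb genes, the markers and the motifs were chosen with earlier results of these data known. Motifs and words of 24 bases were read from mm9.

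Alternatives were a stricter list of regions, an equal number of regions per library, 2 narrower promoter windows, the midpoint as the criterion of overlap, no centring, fold enrichment, a threshold of 1.5-fold and all genes as the background. The versions were matplotlib 3.10.9, scipy 1.17.1, numpy 2.4.6 and pandas 2.3.3, run under Python 3.11.15, and 14 of 14 checks on simulated data returned the planted values.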

Additional observations from a re-analysis of the deposited data

How the results depend on the processing

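With 1 library per condition no replicate could be left out, and no paired analysis was possible because no condition had replicates. Depth limits weak summits, in D9T- most of all. Fold enrichment, all genes as the background and the promoter of 1 kb changed no count of calls, and fold enrichment and the promoter of 1 kb turned no median. Shares of all promoters stand in brackets. Without centring, D0 to D6T- had 8 members higher [84.5%] and 0 lower by at least 2-fold (median 1.99), with Mtf2 at 0.72 in place of -1.21. Without it, D6T- to D12S+ had 0 higher [1.30%] (median -0.46), D12S+ to iPSCs 7 lower [40.5%] (median -1.10), D0 to iPSCs 3 higher [15.5%], and D6T- to D6 siNT 5 lower [78.2%] (median -1.11). With only the stronger regions of each library (those above its median score), D0 to iPSCs had 0 higher [3.14%], Ezh1 having a bound of 0.49, and 24 intragenic regions remained of the 42. With equal numbers of regions, D6T- to D12S+ had 1 higher [1.44%] (Eed), D0 to iPSCs 0 [3.18%], and 18 intragenic regions were left. With the gene start alone as the promoter, D0 to D6T- had 2 lower [9.58%] (Mtf2 and Phf19) and D12S+ to iPSCs 2 higher [10.5%] (Jarid2 and Phf19), and 6 members had a region in all 9 libraries (not Ezh1, Jarid2 and Phf19). The share of all genes with a region in all 9 was not taken under the alternatives, so this count has no share beside it. With the midpoint as criterion, D0 to D6T- had 2 lower [26.5%] (Ezh2 and Mtf2), D6T- to D12S+ 1 lower [6.95%] (Mtf2), D12S+ to iPSCs 1 higher [15.8%] (Mtf2), D0 to iPSCs 1 lower [11.7%] (Ezh2) and D6T- to D6 siNT 2 higher [16.3%] (Ezh2 and Mtf2). Under it 3 members (Ezh1, Ezh2 and Mtf2) lacked a region in some library. In D6T-, internal regions 58.2 kb (Ezh2) and 24.3 kb (Mtf2) downstream stood for the start regions. Ezh2 in iPSCs and Mtf2 in D12S+ had none, so these calls do not compare the same sites. At 1.5-fold, D0 to D6T- had 2 higher [11.8%], D6T- to D12S+ 3 higher [12.3%] (Mtf2 added), D12S+ to iPSCs 1 lower [11.6%], D0 to iPSCs 3 higher [18.5%] and 1 lower [14.8%], and D6T- to D6 siNT 4 higher [7.70%] and 1 lower [8.62%]. The cause of the shifts under equal numbers of regions was not tested. No count of the siRNA comparison changed under any alternative.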
